A study of Danio rerio with 72 samples.

Results

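NR1I2 (ENSDARG00000029766) and cyp2ad3 (ENSDARG00000022650) are 2 of the 31902 entries in a table of read counts from 72 zebrafish RNA-seq libraries. The pair was selected on its measured levels in these libraries, across the tissue, drug and stress groups. Their own differences are therefore described with a standard error (SE) and carry no test. Apart from a check for stray libraries, tests are given only for other genes and for how the pair covaried inside groups. The other genes are 235 of drug handling, genes of the glucocorticoid receptor axis and cell type markers. The fish were of the SR4G line, in which glucocorticoid response elements drive the reporter transcript d4EGFP, and this transgene was present in every group. Fluoxetine is an antidepressant that blocks serotonin reuptake. Fish were bathed in it at 54 ug/L from day 0 to day 6 after fertilization, or in the 0.0053% ethanol vehicle over the same days. Larvae were sampled at 6 days as pools of 22 dissected heads, and adults at 6 months as pools of 5 hypothalami or 5 telencephala. Within each tissue there were 4 groups of 6 libraries, namely fluoxetine stressed, vehicle stressed, fluoxetine unstressed and vehicle unstressed. The sources used here name neither the stressor nor its timing, nor whether pools of a group came from separate spawnings, so p-values measure only the spread between these libraries, which may be technical. For the adults, the drug bath had ended long before sampling.

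NR1I2 encodes the pregnane X receptor, a nuclear receptor that binds many drugs and steroids, pairs with retinoid X receptors and switches on genes that oxidise, conjugate and export foreign compounds. In mammals it is best known from liver and intestine, and it has been described in brain capillaries of rodents, where it governs efflux pumps. In human hepatocytes the glucocorticoid receptor is known to raise its transcription. The cyp2ad3 gene encodes a cytochrome P450 of a fish CYP2 subfamily, one of the oxidising enzymes that need electrons from the reductase POR. Fluoxetine itself is oxidised in humans mainly by enzymes of the CYP2 family.

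Library totals ran from 10.2 to 22.8 M counts (M for mega), and each level below is in CPM, a gene's counts for every M counts of its library, scaled by TMM (trimmed mean of M values) within a tissue. NR1I2 rested on 33 to 455 reads per library and cyp2ad3 on 52 to 3392. Both passed the filter on low counts in all 3 tissues. Larval vehicle unstressed replicates 1 to 3 stand apart: the summed level of 23 tested liver markers was 7909 to 12559 CPM in them, against 453 to 2112 CPM in replicates 4 to 6 of that group. Other marker lists were high in them too. Skeletal muscle markers were at 17587 to 25679 CPM in replicates 1 to 3, against 2780 to 5032 CPM in replicates 4 to 6, intestine markers at 1770 to 2891 against 385 to 772 CPM, and markers of pericytes and meninges at 1989 to 2550 against 165 to 554 CPM. For both genes, larval log2 folds that use this group are also given without them. In adults, library numbers 1 to 24 hold replicates 1 to 3 of every group and numbers 25 to 48 hold replicates 4 to 6, and log2 folds of both genes within each number range are given beside the pooled ones.

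The 2 genes were placed differently across tissues. On a scale normalised over all 72 libraries, NR1I2 in vehicle unstressed fish averaged 9.44 ± 0.93 CPM in the telencephalon, 7.75 ± 1.92 CPM in larval heads and 5.56 ± 0.42 CPM in the hypothalamus (SD, n = 6 each). The telencephalon thus came first, but its lowest library (8.71 CPM) lay below the highest larval one (10.1 CPM), and larval heads overlapped the hypothalamus as well. The hypothalamus, at 4.95 to 6.14 CPM, lay wholly below the telencephalon. On the same scale cyp2ad3 of vehicle unstressed fish averaged 106 ± 10.6 CPM in heads of larvae, 8.36 ± 1.27 CPM in hypothalami and 5.38 ± 1.15 CPM in telencephala. All 6 larval libraries (95.1 to 122 CPM) lay above every adult one, while the 2 adult regions overlapped. Age and body region differ together between larval and adult samples and cannot be told apart. In these bulk samples, fewer cells of a type and less RNA per cell cannot be told apart either.

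In adult brain, NR1I2 sat at an intermediate level in both groups of fluoxetine fish, low in vehicle unstressed fish and high in vehicle stressed fish. In the unstressed hypothalamus it had 6.46 CPM in the lowest, 8.17 CPM in the median and 9.34 CPM in the highest fluoxetine library, against 4.41, 5.05 and 5.96 CPM in vehicle libraries. The 2 groups did not overlap. The fitted level in fluoxetine fish was 1.58 times that in vehicle fish (log2 fold 0.66, SE 0.13), and 0.75 and 0.56 on the log2 scale within library numbers 1 to 24 and 25 to 48. Over all 18380 genes tested in this comparison 16.5% were called higher and 7.89% lower at an adjusted p under 0.05. In the stressed hypothalamus the order was the other way round, with 7.71, 8.92 and 9.84 CPM as the lowest, median and highest fluoxetine values, against 8.92, 12.8 and 16.8 CPM in vehicle libraries. Only 1 vehicle library, replicate 1, fell within the fluoxetine range. The log2 fold was -0.53 (SE 0.12), and -0.46 and -0.59 within the number ranges, in a comparison with 0.805% of all genes called higher and 1.26% lower.

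The same levels, read along the stress axis, gave NR1I2 a large difference in vehicle fish and a small one in fluoxetine fish. In the vehicle hypothalamus every stressed library (8.92 to 16.8 CPM) exceeded every unstressed one (4.41 to 5.96 CPM), by 2.53-fold (log2 1.34, SE 0.13; 1.28 and 1.37 within the number ranges), where 20.3% of all genes were called higher and 16.5% lower. In the fluoxetine hypothalamus, stressed libraries (7.71 to 9.84 CPM) overlapped unstressed ones (6.46 to 9.34 CPM) and the log2 fold was 0.15 (SE 0.13; 0.07 and 0.23 within the number ranges), with 3.6% of genes called higher and 2.89% lower. The difference between the drug differences, stressed minus unstressed, was -1.19 (SE 0.18; -1.21 and -1.15 within the number ranges), and 0.18% and 0.332% of all genes were called above and below 0 on that measure. The comparisons of a tissue share libraries: the vehicle unstressed group enters both the drug comparison in unstressed fish and the stress comparison in vehicle fish.

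The telencephalon showed the same ordering of the 4 groups. Whether the 2 regions came from the same fish is not known here, so their likeness is not counted as an independent repeat. In unstressed fish NR1I2 had 10.5, 12.4 and 13.1 CPM as the lowest, median and highest fluoxetine values, against 8.33, 8.89 and 11.1 CPM in vehicle libraries. Of the 6 fluoxetine libraries, 5 lay above all vehicle ones. The log2 fold was 0.40 (SE 0.09; 0.42 and 0.36 within the number ranges), and 4.88% of the 18367 genes tested were called higher and 2.93% lower. In stressed fish the 2 groups did not overlap, with 10.96, 12.4 and 14.2 CPM in fluoxetine libraries, against 14.9, 17.3 and 20.2 CPM in vehicle libraries. This log2 fold was -0.49 (SE 0.09; -0.46 and -0.51 within the number ranges), in a comparison with 1.16% of genes called higher and 2.35% lower. Stressed vehicle libraries all exceeded unstressed vehicle libraries, by 1.91-fold (log2 0.93, SE 0.09; 0.80 and 1.04 within the number ranges), where 15% of genes were called higher and 11.8% lower. Stressed fluoxetine libraries overlapped unstressed ones, at a log2 fold of 0.05 (SE 0.09; -0.07 and 0.18 within the number ranges), where 6.35% of genes were called higher and 7.26% lower. The difference of the drug differences was -0.89 (SE 0.13; -0.88 and -0.87 within the number ranges), against 0.245% of genes called above 0 and 0.555% below.

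**Figure D1:**
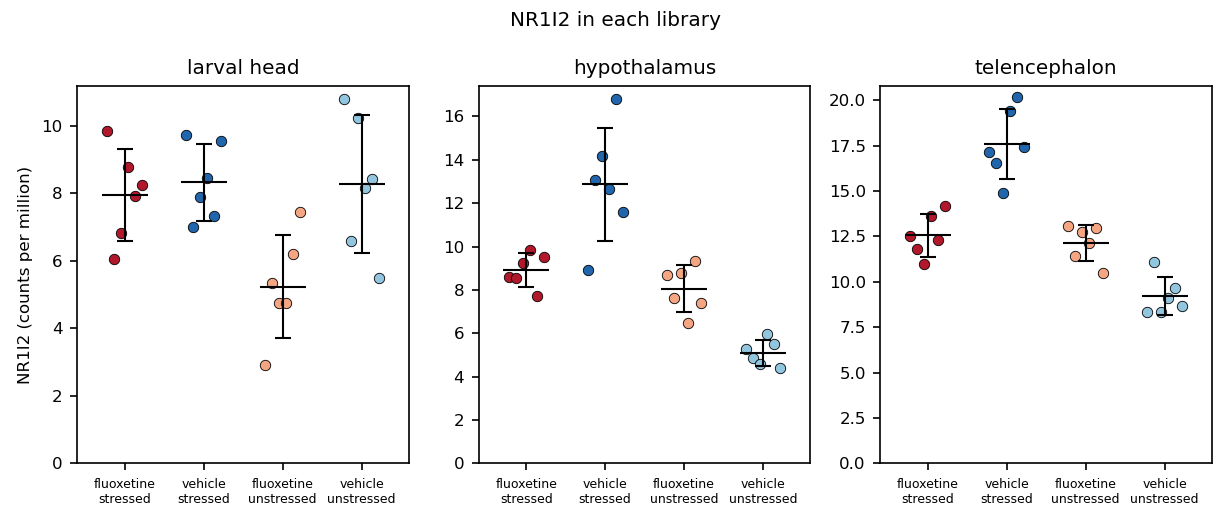
NR1I2 in CPM (y axis, starting at 0 in each panel) in every library of the 4 groups of each tissue, with the mean (long bar) and SD (error bar) of 6 libraries. In both adult regions the vehicle stressed group has the highest mean, the vehicle unstressed group the lowest, and both fluoxetine means lie between; in larval heads the fluoxetine unstressed group has the lowest mean, 5.23 CPM.

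In larval heads NR1I2 did not follow the adult order. Unstressed fluoxetine heads had 2.90 CPM in the lowest, 5.05 CPM in the median and 7.44 CPM in the highest library, against 5.48, 8.28 and 10.8 CPM in vehicle heads. The fluoxetine group was the lower one, with 4 of 6 libraries below all vehicle libraries. The 3 vehicle libraries rich in liver, muscle, intestine and meningeal markers had 10.8, 6.58 and 10.2 CPM of NR1I2, and the other 3 had 8.14, 8.41 and 5.48 CPM. The log2 fold was -0.65 (SE 0.19), and -0.48 without those 3; of the 20260 genes tested, 3.55% were called higher and 7.26% lower. Stressed heads had 6.04, 8.07 and 9.84 CPM with fluoxetine, against 7.0, 8.17 and 9.73 CPM with vehicle, and the log2 fold was -0.07 (SE 0.19), where 1.88% of genes were called higher and 3.32% lower. Stressed and unstressed vehicle heads overlapped fully, at a log2 fold of 0.01 (SE 0.19; 0.18 without the 3 libraries), where 5.82% of genes were called higher and 15.4% lower. Between stressed and unstressed fluoxetine heads the log2 fold was 0.59 (SE 0.19), with 4 of 6 stressed libraries above all unstressed ones, where 1.9% of genes were called higher and 0.439% lower. The difference of the drug differences was 0.58 (SE 0.27; 0.41 without the 3 libraries), while 0.114% and 0.0197% of genes were called above and below 0.

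The enzyme gene cyp2ad3 was higher with fluoxetine in larval heads whether or not the larvae had been stressed. Unstressed heads had 168, 185 and 192 CPM as the lowest, median and highest fluoxetine values, against 102, 111 and 131 CPM in vehicle heads. Stressed heads had 160, 171 and 181 CPM with fluoxetine, against 91.3, 112 and 142 CPM with vehicle. In neither case did the groups overlap. With fluoxetine 3.55% of all genes tested were called higher and 7.26% lower in unstressed heads, and 1.88% and 3.32% in stressed heads. The fitted levels were 1.62 times the vehicle level in unstressed heads (log2 0.70, SE 0.10) and 1.51 times in stressed heads (log2 0.60, SE 0.10). Leaving out the 3 vehicle libraries that stand apart gave 0.71 for unstressed heads. In those 3 libraries cyp2ad3 was at 131, 108 and 102 CPM, inside the range of the whole vehicle group, whose other 3 libraries had 115, 117 and 104 CPM. Within the vehicle stressed group, replicates 1 to 3 had 124 to 142 CPM and replicates 4 to 6 had 91.3 to 98.9 CPM, and the SD of the whole group was 20.3 CPM. These 2 sets of stressed libraries also differed in marker sums. Liver markers were at 643 to 827 CPM, against 1479 to 3000 CPM in replicates 4 to 6, and muscle markers at 949 to 1930, against 4024 to 8248 CPM. Folds without either set were not computed. Stress itself came with log2 folds of -0.09 (SE 0.10) in fluoxetine heads and 0.00 (SE 0.10, and 0.02 without the 3 vehicle unstressed libraries) in vehicle heads.

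In adults, months after the exposure, the fluoxetine groups were again the higher ones in unstressed fish, at levels far below those of larval heads. The unstressed hypothalamus had 8.27, 9.999 and 13.4 CPM as the lowest, median and highest fluoxetine values, against 6.22, 7.60 and 9.21 CPM with vehicle, and 4 of 6 fluoxetine libraries exceeded all vehicle ones. The unstressed telencephalon had 5.54, 9.43 and 10.96 CPM with fluoxetine, against 3.32, 5.30 and 6.28 CPM with vehicle, and 5 of 6 fluoxetine libraries exceeded all vehicle ones. Over all genes tested in these comparisons 16.5% were called higher and 7.89% lower in the hypothalamus, and 4.88% and 2.93% in the telencephalon. The log2 folds were 0.45 (SE 0.16) in the hypothalamus and 0.78 (SE 0.19) in the telencephalon. Within library numbers 1 to 24 and 25 to 48 they were 0.42 and 0.47 in the hypothalamus, and 0.52 and 1.02 in the telencephalon. In stressed adults the groups overlapped. The stressed hypothalamus had 6.56 to 10.3 CPM with fluoxetine, against 4.95 to 10.3 CPM with vehicle, and the stressed telencephalon 4.07 to 7.62 CPM with fluoxetine, against 3.95 to 8.16 CPM with vehicle. The log2 folds there were 0.19 in each region (SE 0.16 in the hypothalamus and 0.19 in the telencephalon). Within the number ranges each region gave 0.11 and 0.30. In the fluoxetine telencephalon, stressed libraries were at 4.07 to 7.62 CPM, against 5.54 to 10.96 CPM in unstressed ones (log2 fold -0.55, SE 0.19; -0.28 and -0.81 within the number ranges). In the fluoxetine hypothalamus they were at 6.56 to 10.3 CPM, against 8.27 to 13.4 CPM in unstressed ones (-0.29, SE 0.16; -0.26 and -0.30 within the number ranges). In vehicle fish the stress log2 folds were -0.03 (SE 0.16; 0.05 and -0.13 within the number ranges) in the hypothalamus and 0.04 (SE 0.19; 0.14 and -0.10) in the telencephalon. The difference of the drug differences was -0.59 (SE 0.27; -0.41 and -0.71 within the number ranges) in the telencephalon, -0.26 (SE 0.23; -0.31 and -0.17) in the hypothalamus and -0.10 (SE 0.15; -0.11 without the 3 larval libraries) in larval heads. Of the 12 comparisons of 2 cyp2ad3 groups, the 2 drug comparisons in larval heads were those whose groups did not overlap. How many of all genes had groups without overlap was not counted.

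**Figure D2:**
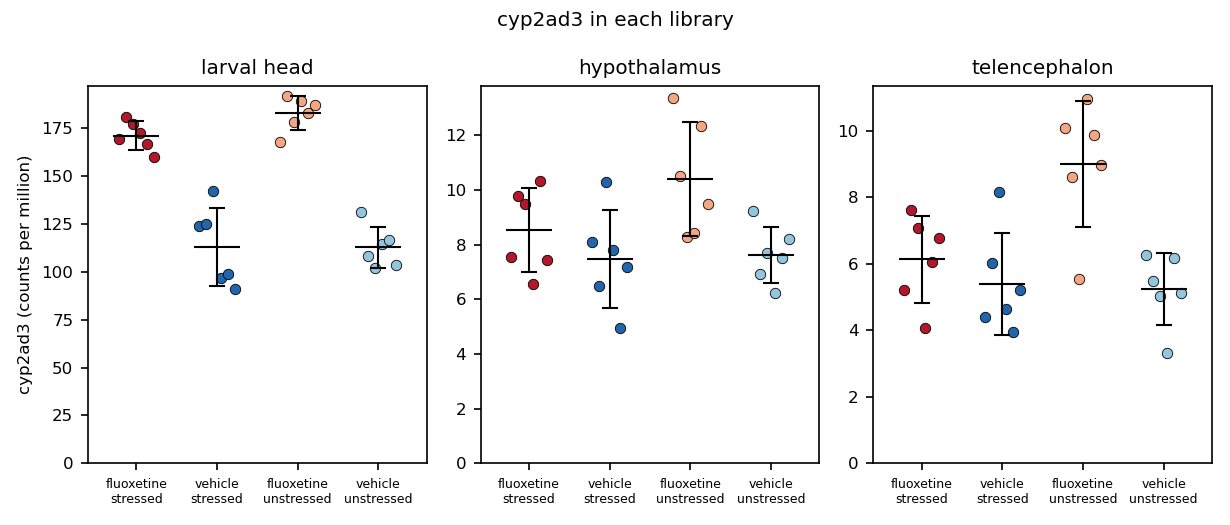
The cyp2ad3 gene in CPM (y axis, starting at 0; scales differ between panels) in every library of the 4 groups of each tissue, with the mean (long bar) and SD (error bar) of 6 libraries. Both fluoxetine groups of larval heads lie at 160 to 192 CPM, above all vehicle heads at 91.3 to 142 CPM; adult groups are below 14 CPM and overlap.

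**Figure D3:**
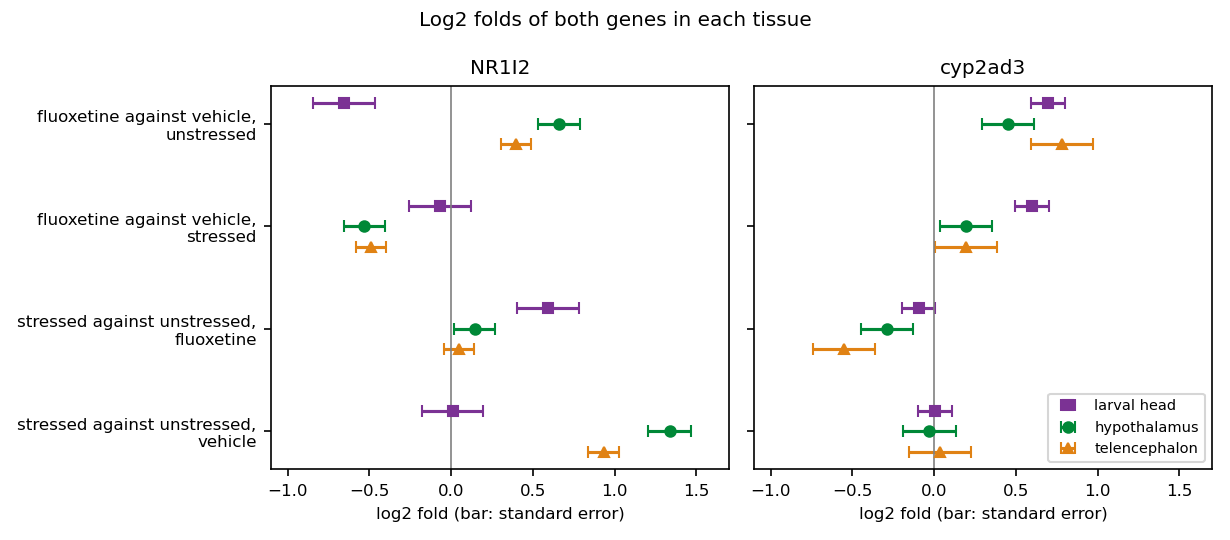
Log2 folds from the fit of each tissue (x axis) for NR1I2 and cyp2ad3 in 4 comparisons (rows), with the standard error as a bar. For NR1I2 the drug fold in adults is above 0 in unstressed fish (0.66 and 0.40) and below 0 in stressed fish (-0.53 and -0.49); all 6 drug folds of cyp2ad3 are above 0, from 0.19 to 0.78.

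Inside groups, no correlation between the 2 genes passed the test. After subtraction of each group's mean from log2 CPM, Pearson's r between them was -0.37 in the telencephalon, -0.22 in the hypothalamus and 0.14 in larval heads (24 libraries each), and Spearman's rho was -0.35, -0.19 and 0.09. Permutation within groups, two-sided and adjusted over the 3 tissues, gave p = 0.298, 0.448 and 0.448 for r and p = 0.348, 0.626 and 0.684 for rho in that order. The unadjusted permutation values were p = 0.0993, 0.4 and 0.448 for r and p = 0.116, 0.417 and 0.684 for rho. Without the 2 libraries farthest from the median in NR1I2, r was -0.34, 0.06 and -0.05 in the same order. Within library numbers 1 to 24 and 25 to 48, r was 0.18 and -0.41 in the hypothalamus and -0.35 and 0.03 in the telencephalon.

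The receptor's partners and co-regulators were among the genes tested. The list of 33 xenobiotic receptors and partners without NR1I2 had 26 members tested in the hypothalamus, of which 7 rose and 0 fell with fluoxetine in unstressed fish, where 16.5% of all genes rose and 7.89% fell. With stress in vehicle fish 8 of the 26 rose and 2 fell, against 20.3% and 16.5% of all genes. The median log2 fold of the list was 0.03 for fluoxetine and 0.21 for stress, against -0.03 and -0.01 over all genes tested. RXRB (ENSDARG00000078954), a retinoid X receptor that can dimerise with the pregnane X receptor, averaged 19.6 ± 4.25 CPM in fluoxetine and 10.4 ± 2.72 CPM in vehicle hypothalami of unstressed fish (SD, n = 6 each; log2 fold 0.92, SE 0.20, edgeR adjusted p = 0.00321). In the vehicle hypothalamus RXRB averaged 21.1 ± 6.49 CPM in stressed and 10.4 ± 2.72 CPM in unstressed fish (adjusted p = 0.000522). RXRA (ENSDARG00000035127), another of these partners, rose as well in both comparisons from a low level, 0.88 ± 0.31 CPM with fluoxetine and 0.27 ± 0.17 CPM with vehicle in unstressed fish (log2 folds 1.65, SE 0.40, and 1.51, SE 0.40; adjusted p = 0.00601 and 0.00595), whereas its second copy ENSDARG00000057737 (0.57 and 0.42, adjusted p = 0.0977 and 0.198), rxrbb, rxrga and rxrgb did not pass. In the telencephalon RXRB rose with fluoxetine in unstressed fish (0.55, SE 0.13, adjusted p = 0.0176) and with stress in vehicle fish (0.65, SE 0.13, adjusted p = 0.000483). In larval heads the list gave 1 gene higher and 2 lower of 32 with fluoxetine in unstressed fish, against 3.55% and 7.26% of all genes, and RXRB was among 3 that fell in stressed larvae (-0.39, SE 0.11, adjusted p = 0.0358), where 3.32% of all genes fell. The aryl hydrocarbon receptor ahr2, which senses another class of compounds, passed in none of the 5 comparisons in any tissue.

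Of 30 genes that the literature gives as targets of the receptor, 19 were tested in the hypothalamus, where 1 rose and 3 fell with fluoxetine in unstressed fish, with a median log2 fold of 0.15. The 1 rise is below the 16.5% of all genes that rose there, and 7.89% of all genes fell. In the telencephalon 4 rose and 1 fell of 20, with a median of 0.17, against 4.88% and 2.93% of all genes. Stress in vehicle fish raised 5 and lowered 0 of the 19 in the hypothalamus, against 20.3% and 16.5% of all genes. It raised 6 and lowered 0 of the 20 in the telencephalon, against 15% and 11.8%. In fluoxetine fish stress raised 4 and lowered 0 in the hypothalamus, against 3.6% and 2.89%. In the telencephalon of these fish it raised 5 and lowered 1, against 6.35% and 7.26%. ABCB4, an efflux pump of the P-glycoprotein family, was the gene that rose with fluoxetine in the unstressed hypothalamus, with 16.9 ± 4.27 CPM in fluoxetine and 9.67 ± 2.32 CPM in vehicle fish (SD, n = 6 each; log2 fold 0.81, SE 0.15, edgeR adjusted p = 0.00213). It rose in the unstressed telencephalon too, with 16.7 ± 3.70 CPM in fluoxetine and 8.81 ± 2.71 CPM in vehicle fish (0.92, SE 0.17, adjusted p = 0.00694). In stressed fish ABCB4 averaged 13.6 ± 1.40 CPM with fluoxetine and 9.50 ± 0.63 CPM with vehicle in the hypothalamus (adjusted p = 0.08), and 13.3 ± 1.28 and 9.74 ± 1.68 CPM in the telencephalon (adjusted p = 0.126). Unlike NR1I2, ABCB4 had stress log2 folds near 0 in vehicle adults, -0.03 (SE 0.15) in the hypothalamus and 0.15 (SE 0.17) in the telencephalon; the difference between the 2 genes was not tested. The reductase POR (ENSDARG00000059035) fell with fluoxetine in both unstressed adult regions, by 0.57 (SE 0.13, adjusted p = 0.00486) and 0.37 (SE 0.09, adjusted p = 0.019) on the log2 scale. Its second copy, ENSDARG00000055092, had -0.10 (SE 0.06, adjusted p = 0.254) in the hypothalamus and rose by 0.24 (SE 0.07, adjusted p = 0.0387) in the telencephalon. CYP1A1, the enzyme best known as a target of aryl hydrocarbon receptors, passed in none of the 5 comparisons in any tissue; in unstressed larval heads it averaged 9.25 ± 6.05 CPM with fluoxetine and 18 ± 7.52 CPM with vehicle (adjusted p = 0.0837, and 0.68 without the 3 libraries that stand apart). The zebrafish gene cyp3a65, of the CYP3A family that the receptor controls in mammals, was tested only in larval heads. It averaged 260 ± 162 CPM with fluoxetine and 251 ± 99.7 CPM with vehicle in unstressed heads, and 146 ± 38.8 and 264 ± 66.5 CPM in stressed heads (adjusted p = 0.926 and 0.116; 0.847 in unstressed heads without the 3 libraries). Adult libraries held 0 to 7 reads of it.

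A few drug transporters and microsomal enzymes had a drug difference more negative in stressed than in unstressed adults, the direction seen for NR1I2, and passed the test of that change. Of 154 drug-handling genes tested in each region, 4 passed below 0 in the hypothalamus and 7 in the telencephalon. None passed above 0, and 0.332% and 0.555% of all genes passed below 0. The 4 of the hypothalamus are given here. ABCC1, a conjugate exporter (ENSDARG00000104719), averaged 16.1 ± 2.21 CPM with fluoxetine and 27.1 ± 3.35 CPM with vehicle in the stressed hypothalamus, and 14 ± 2.12 and 12.4 ± 2.11 CPM in the unstressed one. Its drug difference changed between stress states by -0.92 on the log2 scale in the hypothalamus (SE 0.17, edgeR adjusted p = 0.007) and by -0.84 in the telencephalon (SE 0.13, adjusted p = 0.000415). The exporter abcg2a averaged 6.56 ± 0.88 CPM with fluoxetine and 10.5 ± 2.11 CPM with vehicle in the stressed hypothalamus, and 9.69 ± 2.95 and 4.25 ± 1.29 CPM in the unstressed one, a change of -1.87 (SE 0.28, adjusted p = 0.000477). BLVRA, which reduces the heme product biliverdin, averaged 4.50 ± 0.94 CPM with fluoxetine and 13.2 ± 3.72 CPM with vehicle in the stressed hypothalamus, and 5.05 ± 1.36 and 3.09 ± 1.56 CPM in the unstressed one (-2.26, SE 0.40, adjusted p = 0.00311). EPHX1, the microsomal epoxide hydrolase, averaged 22.7 ± 2.52 CPM with fluoxetine and 42.2 ± 6.07 CPM with vehicle in the stressed hypothalamus, and 20.9 ± 2.80 and 21.04 ± 3.83 CPM in the unstressed one (-0.88, SE 0.18, adjusted p = 0.0132). All 4 passed in the telencephalon as well. ABCC1 and EPHX1 did not pass for fluoxetine in unstressed fish of either region, and fell in stressed fish of both (ABCC1 by 0.75, SE 0.12, and 0.61, SE 0.09; EPHX1 by 0.89, SE 0.12, and 0.94, SE 0.10). The exporter abcg2a rose with fluoxetine in unstressed fish in both regions (log2 folds 1.19, SE 0.20, and 1.11, SE 0.25, adjusted p = 0.00173 and 0.0173).

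Over all 235 drug-handling genes, calls in the adult brain leaned upward with fluoxetine in unstressed fish and with stress in vehicle fish. In the hypothalamus, with 154 genes tested, 31 rose and 9 fell with fluoxetine in unstressed fish, which is little above the 16.5% of all genes for rises and near the 7.89% for falls, while 3 rose and 6 fell in stressed fish, against 0.805% and 1.26%. The median log2 fold of these genes in unstressed fish was 0.13, against -0.03 over all genes. Stress raised 49 and lowered 7 in vehicle fish, against 20.3% and 16.5% of all genes, and raised 13 and lowered 0 in fluoxetine fish, against 3.6% and 2.89%. In the telencephalon, again with 154 tested, 19 rose and 1 fell with fluoxetine in unstressed fish, against 4.88% and 2.93% of all genes, and 2 rose and 6 fell in stressed fish, against 1.16% and 2.35%. The median in unstressed fish was 0.18, against 0.02 over all genes. Stress raised 41 and lowered 3 in vehicle fish, against 15% and 11.8% of all genes, and raised 13 and lowered 7 in fluoxetine fish, against 6.35% and 7.26%. For fluoxetine in unstressed fish, where 16.5% of all genes rose and 7.89% fell in the hypothalamus and 4.88% rose and 2.93% fell in the telencephalon, 9 drug transporters of 29 rose and 1 fell in the hypothalamus (median log2 fold 0.32), and 7 of 30 rose and 0 fell in the telencephalon (median 0.38). ABCC4, an exporter of nucleotides and conjugates, was among them, with log2 folds of 1.02 (SE 0.20, edgeR adjusted p = 0.00225) and 1.33 (SE 0.23, adjusted p = 0.0069). Cytochrome P450 genes of families 1 to 4, the class of cyp2ad3, gave 3 higher and 2 lower of 24 in the hypothalamus and 3 higher and 0 lower of 23 in the telencephalon, in the same comparison. The interaction was called for 4 genes in the hypothalamus and 7 in the telencephalon, each of them below 0, where 0.332% and 0.555% of all genes were below 0, and for 1 gene in larval heads, above 0, as were 0.114% of all genes. In larval heads 5 of 199 rose and 44 fell with fluoxetine in unstressed fish, against 3.55% and 7.26% of all genes. Without the 3 vehicle libraries rich in liver, muscle, intestine and meningeal markers 9 rose and 0 fell, against 1.96% and 1.73%. Stress in vehicle heads raised 8 and lowered 70, against 5.82% and 15.4% of all genes, and raised 8 and lowered 0 without those libraries, against 2.27% and 0.375%. Fluoxetine in stressed heads gave 2 higher and 11 lower, against 1.88% and 3.32%, and stress in fluoxetine heads 4 higher and 1 lower, against 1.9% and 0.439%.

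**Figure D4:**
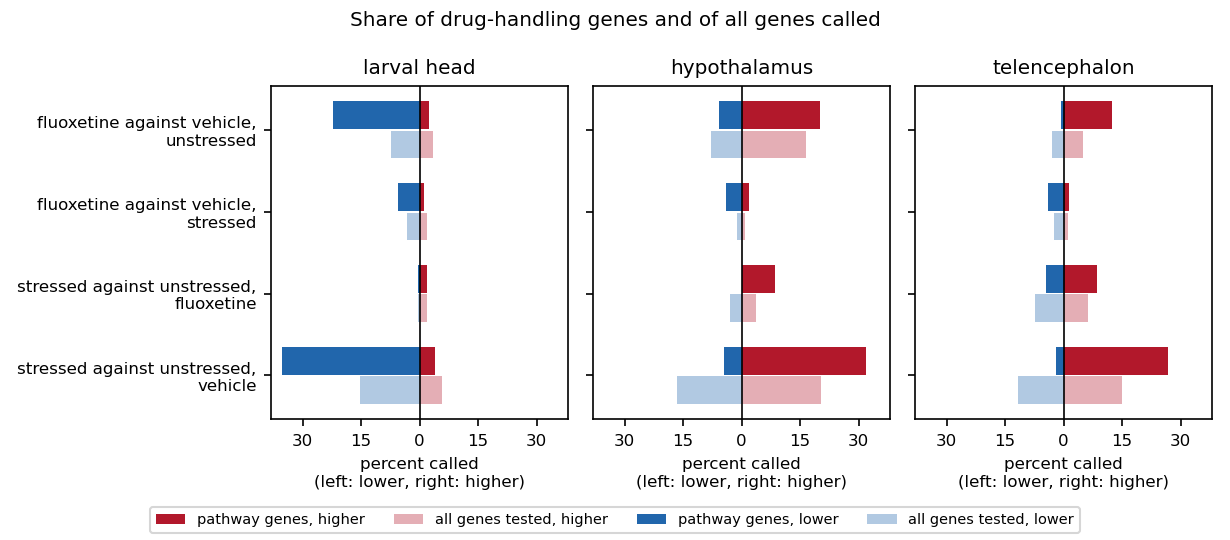
Percent of tested drug-handling genes (dark bars) and of all genes tested (pale bars) called at an adjusted p under 0.05, higher to the right and lower to the left of 0, in 4 comparisons of each tissue. In adults the dark bars point mainly to the right for fluoxetine in unstressed fish and for stress in vehicle fish; the larval bars to the left for fluoxetine in unstressed fish and stress in vehicle fish stand for 44 and 70 genes, against 0 and 0 without 3 vehicle libraries.

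Other genes around cyp2ad3 give its closest family. In a RefSeq annotation of another build (GRCz12tu), used only for gene order, the 5 nearest protein-coding genes on each side of cyp2ad3 were read. Of these, 9 are CYP2 genes, cyp2n13, cyp2ad6, cyp2ad2 and cyp2v1 on one side and cyp2p6, cyp2p7, cyp2p8, cyp2p9 and cyp2p10 on the other. The reading stopped at cyp2p10, so the run of CYP2 genes may go on beyond it. How the counting treated reads shared by such related genes is not stated, so the division of reads among them is uncertain. In unstressed larval heads cyp2p7 rose with fluoxetine, to 18.2 ± 2.49 CPM, against 11.7 ± 1.62 CPM with vehicle (SD, n = 6 each; log2 fold 0.63, SE 0.13, edgeR adjusted p = 0.00747, and 0.0317 without the 3 libraries that stand apart). The neighbour cyp2v1 fell with fluoxetine in stressed heads, to 8.85 ± 1.88 CPM, against 16.3 ± 1.93 CPM with vehicle (-0.87, SE 0.16, adjusted p = 0.00352). In unstressed heads cyp2v1 and cyp2p8 also fell (adjusted p = 0.0208 and 0.0442), and neither passed without the 3 libraries (0.141 and 0.953). The closest relatives by name, cyp2ad6 and cyp2ad2, did not pass for fluoxetine in larval heads (log2 folds 0.16, SE 0.15, and -0.98, SE 0.34, in unstressed heads; adjusted p = 0.484 and 0.0604). Without the 3 libraries these log2 folds were 0.30 (SE 0.18) for cyp2ad6 and 0.11 (SE 0.29) for cyp2ad2. In adults cyp2ad6 rose with fluoxetine in unstressed fish, to 2.57 ± 0.78 CPM, against 1.06 ± 0.49 CPM with vehicle in the hypothalamus (1.26, SE 0.29, adjusted p = 0.0048), and to 2.47 ± 1.20 CPM, against 0.77 ± 0.32 CPM with vehicle in the telencephalon (1.66, SE 0.31, adjusted p = 0.00694). Of these 9 CYP2 neighbours, 1 rose and 2 fell with fluoxetine in unstressed larval heads, against 3.55% and 7.26% of all genes. In the unstressed hypothalamus 2 rose and 1 fell of 7 tested, against 16.5% and 7.89%, and in the unstressed telencephalon 1 rose and 0 fell of 8, against 4.88% and 2.93%.

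The genes most like NR1I2 over the 72 libraries, by Pearson's r of log2 CPM after removal of tissue means among 17419 genes, were npas2 (0.82), ABCB6 (0.81), STAT3 (0.80), SEC24D (0.79) and ABCC1 (0.78). These r values describe the libraries, which share group structure and depth, and carry no p. The clock-family factor npas2 averaged 5.38 ± 0.72 CPM with fluoxetine and 13.2 ± 4.27 CPM with vehicle in the stressed hypothalamus, and 2.06 ± 0.54 and 0.89 ± 0.64 CPM in the unstressed one. The most opposite were FBXO25 (-0.78) and ZNF395 (-0.75). For glucocorticoid-induced genes, r with NR1I2 was 0.69 for KLF9, 0.65 for FKBP5 and 0.48 for the reporter d4EGFP. Any gene outside the highest ones named above must have a lower r, so that order says nothing about these genes. Their ranks among all genes are not given. Stress raised FKBP5, a co-chaperone of the glucocorticoid receptor, in the fluoxetine hypothalamus to 581.8 ± 66.9 CPM, against 64.3 ± 20.4 CPM in unstressed fish (log2 fold 3.18, SE 0.25, edgeR adjusted p = 6.08e-09). Of 21 tested genes of the glucocorticoid receptor axis, 12 rose and 1 fell there (median log2 fold 0.63), against 3.6% and 2.89% of all genes. In the vehicle hypothalamus stress raised 17 and lowered 2 (median 1.29), against 20.3% and 16.5%. In telencephala the stress medians were 0.91 with fluoxetine and 1.03 with vehicle. This list, FKBP5 included, was drawn up with earlier results of these data known. Its counts are therefore a description and no independent evidence of a stress response. The part of this axis in the NR1I2 result was not tested. For cyp2ad3 the highest r values were those of si:zfos-905g2.1 (0.59), eif4ebp3 (0.59), ern1 (0.58), TCEA3 (0.58) and PLCD3 (0.56), and the lowest those of ABCF1 (-0.57) and actb1 (-0.54). The r between the 2 genes themselves was -0.21.

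Endothelial markers were higher together with NR1I2 in 2 of the 4 adult comparisons, fluoxetine in unstressed fish and stress in vehicle fish, and did not follow it in the other 2. The summed level of the 21 brain endothelial markers tested in the hypothalamus was 159 to 221 CPM in fluoxetine and 101 to 158 CPM in vehicle libraries of unstressed fish. Along the stress axis it was 184 to 250 CPM in stressed and 101 to 158 CPM in unstressed vehicle libraries. Fluoxetine in unstressed fish raised 11 of these 21 and lowered 0, against 16.5% and 7.89% of all genes, and stress in vehicle fish raised 14 and lowered 1, against 20.3% and 16.5%. In the telencephalon 10 of 23 rose and 0 fell with fluoxetine in unstressed fish, against 4.88% and 2.93% of all genes, at summed levels of 169 to 258 CPM, against 107 to 168 CPM with vehicle. With stress in vehicle telencephala 10 of the 23 rose and 2 fell, against 15% and 11.8% of all genes. The summed levels were 178 to 290 CPM in stressed and 107 to 168 CPM in unstressed vehicle telencephala. Stress in fluoxetine fish, where the log2 folds of NR1I2 were 0.15 and 0.05, raised 4 markers and lowered 1 in each region, against 3.6% and 2.89% of all genes in the hypothalamus and 6.35% and 7.26% in the telencephalon. Their summed levels there were 236 to 257 CPM in stressed and 159 to 221 CPM in unstressed hypothalami, with no overlap, and 249 to 305 CPM in stressed and 169 to 258 CPM in unstressed telencephala. In stressed hypothalami, where NR1I2 was lower with fluoxetine, the markers were at 236 to 257 CPM with fluoxetine and 184 to 250 CPM with vehicle, and edgeR called 0 of 21 in either direction (5 higher and 0 lower at an unadjusted p under 0.05; median log2 fold 0.17). In stressed telencephala, where NR1I2 was lower with fluoxetine too, they were at 249 to 305 CPM with fluoxetine and 178 to 290 CPM with vehicle. There edgeR called 0 of 23 in either direction (5 higher and 0 lower at an unadjusted p under 0.05, median log2 fold 0.31). ABCB4 belongs to this list, and the part of endothelial content in the NR1I2 and ABCB4 results was not tested. Other marker lists moved in the same 2 comparisons too, not always alike in both regions. With fluoxetine in unstressed telencephala 5 of 14 choroid plexus and ependyma markers rose and 0 fell, against 4.88% and 2.93% of all genes. In unstressed hypothalami 3 of 13 rose and 1 fell, against 16.5% and 7.89%. Of 19 neuron markers, 5 fell and 0 rose with fluoxetine in unstressed telencephala, against 2.93% and 4.88% of all genes. In unstressed hypothalami 2 fell and 4 rose, against 7.89% and 16.5%. Stress in vehicle telencephala lowered 7 neuron markers and raised 1, against 11.8% and 15%. In vehicle hypothalami it lowered 2 and raised 2, against 16.5% and 20.3%. The median stress log2 fold of 15 microglia and macrophage markers was 0.53 in vehicle hypothalami, against -0.01 over all genes. In vehicle telencephala it was 0.36, against -0.005. In each region 4 of these 15 rose with that stress and 0 fell, with the shares of all genes as above. With fluoxetine in unstressed fish their median was 0.26 in hypothalami and 0.43 in telencephala. The median of 12 oligodendrocyte markers was -0.38 in hypothalami and -0.43 in telencephala with fluoxetine in unstressed fish. With stress in vehicle fish it was 0.04 and -0.26. Not every list that held called genes is described here. Of 25 liver markers, 7 passed the filter on low counts in hypothalami and 9 in telencephala, while the liver-defining fabp10a had at most 6 reads in any adult library. The summed level of these liver markers was lowest in vehicle unstressed and highest in vehicle stressed fish by its medians, as NR1I2 was, with overlapping ranges. In unstressed hypothalami its median was 599 CPM (range 505 to 836) with fluoxetine and 509 CPM (426 to 604) with vehicle, and in stressed hypothalami 664 CPM (561 to 834) with fluoxetine and 724 CPM (578 to 946) with vehicle. In telencephala it was 189 CPM (143 to 231) with fluoxetine and 114 CPM (87.7 to 221) with vehicle in unstressed fish, and 238 CPM (204 to 286) with fluoxetine and 264 CPM (169 to 360) with vehicle in stressed fish. For fluoxetine in unstressed fish 1 of the 7 liver markers rose and 0 fell in the hypothalamus, against 16.5% and 7.89% of all genes. In the telencephalon 1 of the 9 rose and 0 fell, against 4.88% and 2.93%. Stress in vehicle fish raised 1 liver marker and lowered 1 in the hypothalamus, against 20.3% and 16.5% of all genes. It raised 2 and lowered 0 in the telencephalon, against 15% and 11.8%. The part of these markers in the NR1I2 result was not tested.

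**Figure D5:**
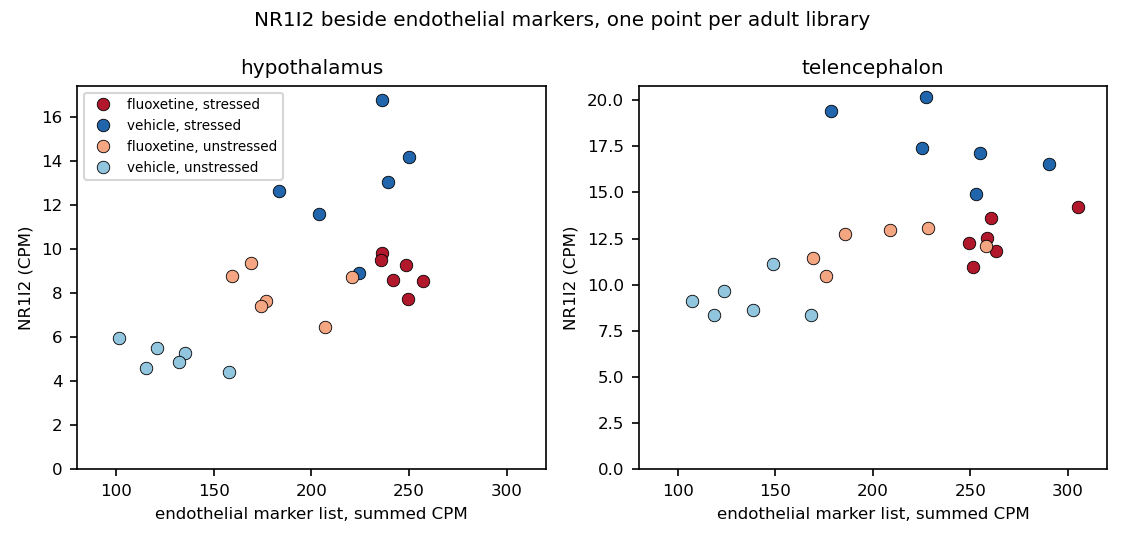
NR1I2 in CPM (y axis) against the summed CPM of the brain endothelial marker list (x axis, starting at 80 CPM), 1 point per adult library, coloured by group. Vehicle unstressed libraries lie toward the lower left of both panels; the 2 stressed groups overlap on the marker axis in each region, while in the telencephalon NR1I2 is at 10.96 to 14.2 CPM with fluoxetine and 14.9 to 20.2 CPM with vehicle.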

How the data were processed

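RNA-seq read counts of 72 libraries were deposited by the authors as whole-number counts per gene, with no normalization. Per the submitters' processing notes, bcl2fastq 2.17.1.14, cutadapt, STAR 2.5 and DESeq2 were used; the sources used here do not name the counting program, its strand setting or the genome build. Per the labels, RNA was poly(A)-selected with a stranded kit. Symbols matched 29178 of 31901 Ensembl identifiers. For each tissue its 4 groups were fitted together (edgeR 4.0.16, R 4.3.3) after filterByExpr (count 10, total 15) and TMM scaling, with robust quasi-likelihood F-tests; p-values were adjusted by Benjamini and Hochberg over all genes tested, with a threshold of 0.05. The SE is the log2 fold divided by the square root of F. The 2 genes and all lists were chosen with earlier results of these data known. From each list, up to 4 called genes with mean log2 CPM of at least 1 could be named by largest fold, and a fixed set (cyp2ad2, cyp2ad6, cyp3a65, CYP1A1, ABCB4, POR, ahr2 and retinoid X receptors) was given as values, as were the 5 most and 2 least alike by r. The CYP2 neighbours of cyp2ad3, the values of npas2 and r for KLF9, FKBP5 and d4EGFP were added after values were seen. The r within groups used log2 CPM (prior count 2) and 100000 permutations within groups. DESeq2 1.42.0, other size factors, no filter, blocks and left-out libraries were alternatives. The fit was also run on counts simulated as independent between libraries, which cannot show how it handles library sets that differ in marker content. Precision is limited by the reads per gene, given in the text.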

Additional observations from a re-analysis of the deposited data

Results flagged for a closer look

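No single library was marked as a stray of its group in either gene. Of 24 sets of 6 values, 12 groups for each of the 2 genes, none had a lowest or highest value past Dixon's 95% limit. This rule looks for 1 stray value. It cannot mark several libraries displaced together, such as those of cyp2ad3 in larval vehicle stressed heads described above. Chance alone would mark about 1 set in 20. The results marked here are drug-handling genes whose fluoxetine difference in stressed fish departed from that in unstressed fish, by edgeR's quasi-likelihood test of the difference itself with adjustment over all genes. In the hypothalamus these were abcg2a (-1.87 on the log2 scale, adjusted p = 0.000477), BLVRA (-2.26, 0.00311), ABCC1 (-0.92, 0.007) and EPHX1 (-0.88, 0.0132). In the telencephalon they were BLVRA (-1.68, 3.54e-05), ABCC1 (-0.84, 0.000415), EPHX1 (-0.85, 0.00194), abcg2a (-1.74, 0.0104), EPHX2 (-1.11, 0.0258), MGST1 (ENSDARG00000032618, -1.26, 0.0263) and cyp2y3 (-1.30, 0.042). In larval heads POR (ENSDARG00000055092) was the only one (0.58, adjusted p = 0.0496), and without the 3 vehicle libraries rich in liver, muscle, intestine and meningeal markers its value was 0.48 (adjusted p = 0.11).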

How the results depend on the processing

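For NR1I2 and cyp2ad3, all 214 log2 folds under alternative settings stayed within 1 SD of the spread between libraries; 4 of 30 folds, none larger than 0.05 in size, took the other sign under a setting. Leaving out any single library moved a difference by at most 1.11-fold, and 5 of 24 differences, none larger than 0.0732 on the log2 scale, took the other sign. All 9 alternative values of the covariation kept their side of the threshold. Calls among the drug-handling genes depended more on the fit; the cause was not tested except where libraries or groups were left out. For fluoxetine in unstressed larval heads the 49 calls became 9 with the replicate block, 0 with only the 2 groups compared and 9 without vehicle unstressed replicates 1 to 3. For stress in vehicle heads the 78 calls became 38, 8 and 8 in that order. The 49 calls were 5 rises and 44 falls, and the 78 were 8 rises and 70 falls. Without those replicates, every call left in either comparison was a rise. Shares of all genes called are not given for the block, the 2 groups, no filter or DESeq2. The counts under those settings therefore cannot show whether this list or all genes changed. Fluoxetine in stressed heads (13 calls) gave 8 with no filter, 32 with 2 groups and 30 without those libraries, and stress in fluoxetine heads (5 calls) gave 19 and 16 with the last 2 settings. The larval interaction (1 call) gave 0 with no filter and with the replicate block, 3 without those libraries and 5 with DESeq2. In the hypothalamus DESeq2 gave 15 calls for fluoxetine in stressed fish, against 9, and 9 for the interaction, against 4. In the telencephalon fluoxetine in unstressed fish (20 calls) gave 32 with the replicate block and 13 with 2 groups; in stressed fish (8 calls) it gave 13 with the block and 16 with DESeq2, and the interaction (7 calls) gave 11 with DESeq2. Replicate numbers were not treated as pairs, since every residual correlation exceeded 0.1 in 0 of 6 pairs of groups per tissue. A single low correlation fails this rule, so it cannot exclude sets of replicates. The block was used only as an alternative. NR1I2 rested on 33 to 455 reads per library, which limits its precision.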
